A study of Mus musculus with 2 samples.

Results

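Prostaglandin and leukotriene synthesis genes were examined in distal colon RNA of IL-9 transgenic mice, which express the mast cell growth factor interleukin-9 from a transgene, and of wild-type mice. The list held 10 genes, and every probe set of the Affymetrix array annotated with the symbol of a listed gene, and no other symbol, was taken. This gave 13 probe sets for 8 genes, out of 20380 single-symbol probe sets for 12393 genes on the array. No probe set was annotated to Ptgs1, the constitutive cyclooxygenase, or to Alox5, the 5-lipoxygenase itself, so both are not analysed here. Whether any of the 1555 probe sets without a symbol measures them was not examined.

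The IL-9 transgenic pool (array titled Tg5) and the wild-type pool (array titled FVB) each held RNA from 4 mice, hybridised to 1 array per genotype. Per the labels' protocols the animals were kept specific pathogen-free, and the series design spells the wild-type strain as TVB, where the sample label has FVB. The promoter that drives the transgene and the age and sex of the mice are not given in the sources used here. With 1 pool per genotype there was no estimate of the spread between mice, so comparisons of genotypes carry neither a test nor an SD.

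Prostanoids and leukotrienes are made from arachidonic acid, which phospholipases release from membranes. Cyclooxygenases turn it into prostaglandin H2, and terminal synthases turn that into prostaglandin E2, prostaglandin D2 or prostacyclin, while the 5-lipoxygenase route with its activating protein leads to leukotriene A4 and from there to leukotriene B4 or C4. In the gut, prostaglandin E2 supports the mucosal epithelium and muscle tone, and mast cells, macrophages and tuft cells are known sources of prostaglandin D2 and of cysteinyl leukotrienes.

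Values are intensities on the linear scale of the deposited table, and a ratio is the log2 of transgenic over wild type. Intensities under 19.8, the 40th percentile over both arrays without the control probe sets, were raised to that floor. A probe set counts as measured if either array lay above the floor. The median intensity was 34.2 on the transgenic array and 34.0 on the wild-type array. Il9 had an intensity of 862 in the transgenic pool and 5.14 in the wild-type pool, at least 43.6-fold higher, which was read as a check of the array labels. All 11 markers of colon epithelium on the array, among them Car1, Slc26a3 and Cdx2, exceeded the floor on both arrays.

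No measured gene of the list was called at 2-fold. The ratios of Ptges, Hpgds and Ltc4s are bounds, so a difference of 2-fold is not excluded for them. Of the list's 13 probe sets, 10 were measured, for 8 genes. By 2-fold or more, 0 were higher and 0 lower in transgenic colon. Over all 13070 measured single-symbol probe sets the corresponding shares were 0.712% higher and 0.742% lower, so a count of 0 among 10 lies near the background. The measured probe sets ranged from a log2 ratio of -0.70 for Ptgs2 to 0.80 for Alox5ap, with a median of -0.11, beside a median of 0.03 over all measured probe sets. At 1.5-fold, a threshold chosen after the values were seen, 1 of 10 was higher (Alox5ap) against 3.92% of all measured probe sets, and 1 of 10 was lower (a probe set of Ptgs2) against 3.68%. Without regard to the floor, the transgenic value was higher in 6 and lower in 7 of the 13 probe sets. In pooled tissue RNA, fewer cells of a type and less RNA per cell cannot be told apart.

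**Figure D1:**
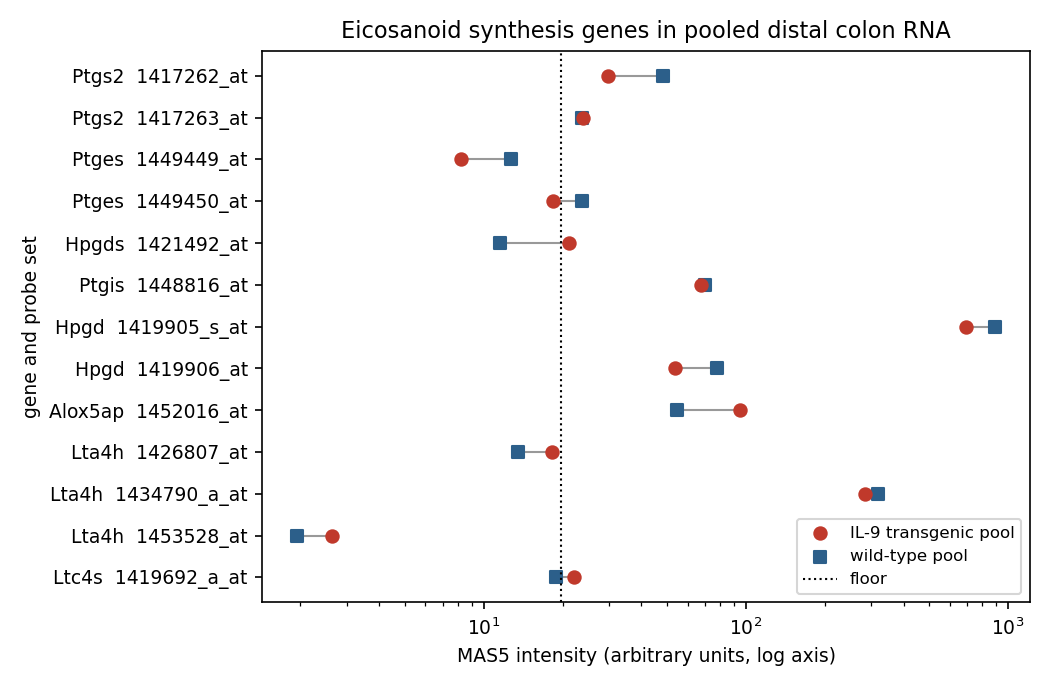
Intensity of each of the 13 probe sets (rows) on a log axis in arbitrary units, with a circle for the IL-9 transgenic pool, a square for the wild-type pool and a dotted line at the floor of 19.8. The widest gaps among probe sets with both values above the floor are those of Alox5ap, higher in the transgenic pool, and of Ptgs2 1417262_at, lower there.

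Ptgs2 encodes the inducible cyclooxygenase, which inflammation and growth factors are known to raise. Probe set 1417262_at read 29.8 in the transgenic pool and 48.5 in the wild-type pool, which is 1.63-fold lower (log2 ratio -0.70). Its other probe set, 1417263_at, had 24.0 in the transgenic pool and 23.8 in the wild-type pool, a log2 ratio of 0.01. Both probe sets carry the same accession in the annotation, yet only the first was lower in the transgenic pool. Of all single-symbol probe sets with both values above the floor, 3300 had a geometric mean intensity of up to 50, and the middle 95% of their log2 ratios spanned -0.74 to 0.75, so both Ptgs2 probe sets lay inside that range.

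The promoter of Ptgs2 is shown because its probe set 1417262_at had the lowest ratio of the list, though its other probe set did not. In the RefSeq window from 250 bases before to 50 bases after the annotated start (GRCm38.p6, chr1:150099781-150100080, plus strand), capitals mark a cAMP-response core on the opposite strand and an E-box that shares 2 bases with it, starting at positions 13 and 17 after the start.
Ptgs2: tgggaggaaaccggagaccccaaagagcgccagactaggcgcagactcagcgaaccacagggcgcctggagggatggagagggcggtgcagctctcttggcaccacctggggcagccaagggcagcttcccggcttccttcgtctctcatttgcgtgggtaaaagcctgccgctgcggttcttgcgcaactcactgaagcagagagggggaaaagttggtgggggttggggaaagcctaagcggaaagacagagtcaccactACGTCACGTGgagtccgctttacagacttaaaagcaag

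The terminal prostanoid synthases of the list lay close to the floor or had ratios near 0. Ptges, the inducible microsomal prostaglandin E synthase, had 18.5 in the transgenic pool and 23.8 in the wild-type pool by probe set 1449450_at, at least 1.20-fold lower. Its second probe set, 1449449_at, stayed under the floor with 8.16 in the transgenic pool and 12.7 in the wild-type pool. Both Ptges probe sets thus had the lower value in the transgenic pool, at levels where MAS5 ratios are unstable.

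Hpgds, the haematopoietic prostaglandin D synthase known from mast cells and other immune cells, had 21.2 in the transgenic pool and 11.5 in the wild-type pool. It exceeded the floor only in the transgenic pool and by little, so its ratio is a bound of at least 1.07-fold higher, and it counted as measured only through the pool where it was high. Ptgis, the prostacyclin synthase of vessel wall and smooth muscle, had 67.4 in the transgenic pool and 69.8 in the wild-type pool, a log2 ratio of -0.05. The endothelial list beside it had 2 of 8 measured markers at least 2-fold higher, Plvap and Vwf at 2.01-fold each, and the smooth muscle list 0 of 9. Both endothelial calls were lost under median scaling and under loess, where Plvap had a log2 ratio of 0.98. The part of either cell type in the Ptgis value was not tested.

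Hpgd, the dehydrogenase that inactivates prostaglandins, was lower in the transgenic pool by both of its probe sets. Probe set 1419905_s_at had 695 in the transgenic pool and 893 in the wild-type pool, 1.28-fold lower (log2 ratio -0.36). Probe set 1419906_at had 53.8 in the transgenic pool and 77.4 in the wild-type pool, 1.44-fold lower (log2 ratio -0.53). The probe sets carry the same accession and share the same arrays, so they are not independent measurements of a difference between genotypes.

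Both Hpgd ratios lay inside the middle 95% of probe sets of like intensity. That range was -0.42 to 0.41 for the 1090 probe sets with a geometric mean above 500, of which 4.40% had a lower ratio than 1419905_s_at. It was -0.63 to 0.70 for the 3132 between 50 and 100, of which 4.66% had a lower ratio than 1419906_at. The epithelium is a known site of Hpgd, and the 11 colon epithelium markers summed to 16914 in the transgenic pool and 18207 in the wild-type pool, with 0 of 11 at 2-fold. The part of epithelial content in the Hpgd values was not tested.

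The promoter of Hpgd is shown because both of its probe sets exceeded the floor on both arrays and had the lower value in the transgenic pool. In its window (GRCm38.p6, chr8:56294302-56294601, plus strand), capitals mark the TATA box letters TATAAA, which start at position 5 after the annotated start. Whether they act as a TATA box for that start was not tested.
Hpgd: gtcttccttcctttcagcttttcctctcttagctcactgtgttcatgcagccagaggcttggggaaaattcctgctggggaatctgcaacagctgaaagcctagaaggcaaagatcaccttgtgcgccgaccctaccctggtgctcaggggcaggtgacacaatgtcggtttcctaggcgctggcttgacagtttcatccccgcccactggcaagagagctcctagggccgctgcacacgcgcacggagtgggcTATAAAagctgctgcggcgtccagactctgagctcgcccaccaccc

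Promoter windows were at hand for 8 of the 10 genes, Ptgs1 and Alox5 among them, and not for Alox5ap and Ptgis. Each was searched on both strands for TATAAA, for the cAMP-response core TGACGT, for the E-box CACGTG, for the GATA site AGATAA and for TTCNNNGAA, the palindrome that STAT factors downstream of cytokine receptors are known to bind. TATAAA was in 1 of 8 windows and in 13.6% of all 32851 promoter windows of that length. The cAMP-response core was in 1 of 8 and 7.51%, and the E-box in 1 of 8 and 7.15%. TTCNNNGAA was in 0 of 8 and 8.3%, and AGATAA in 0 of 8 and 11.2%, which says only that these letters are not in these windows.

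On the leukotriene side, Alox5ap had the highest ratio of the list. It encodes the 5-lipoxygenase-activating protein, which presents arachidonic acid to the lipoxygenase. Its only probe set, 1452016_at, read 94.9 in the transgenic pool and 54.5 in the wild-type pool, which is 1.74-fold higher (log2 ratio 0.80). Of the 3132 probe sets with a geometric mean intensity between 50 and 100, 1.28% had a higher ratio, and the value lay above the middle 95% of -0.63 to 0.70. That range holds differences between genes on these arrays and no spread between mice.

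**Figure D2:**
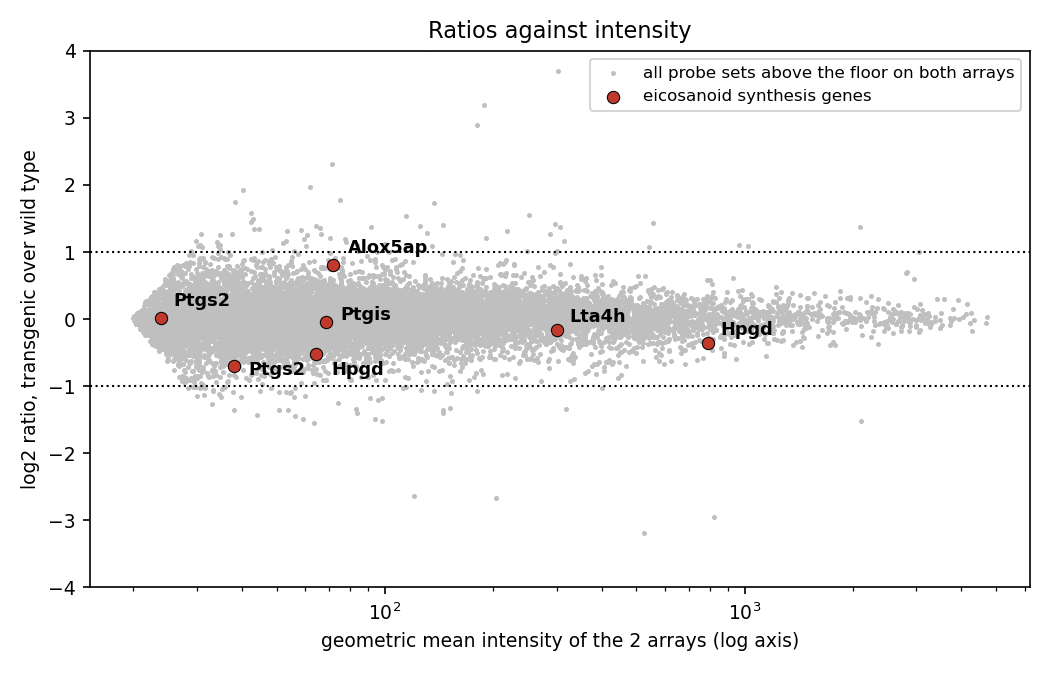
Log2 ratio of transgenic over wild type against the geometric mean intensity of both arrays (log axis), with grey points for all single-symbol probe sets whose values both exceed the floor and red points for the 7 such probe sets of the list. Dotted lines mark 2-fold in either direction, 1 of the grey probe sets lies outside the drawn range, and all red points lie between the lines, with Alox5ap nearest to the upper one.

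Lta4h, the hydrolase that makes leukotriene B4, had 284 in the transgenic pool and 319 in the wild-type pool by 1434790_a_at, a log2 ratio of -0.17. Its other probe sets were below the floor on both arrays, 1426807_at at 18.2 in the transgenic pool and 13.6 in the wild-type pool, and 1453528_at at 2.63 in the transgenic pool and 1.94 in the wild-type pool. The dim probe sets thus had the opposite sign from the bright one, at values that carry no order. Ltc4s, the leukotriene C4 synthase, had 22.1 in the transgenic pool and 18.9 in the wild-type pool, at least 1.12-fold higher, and was measured only through the transgenic pool.

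The wider pathway was read from 70 further gene symbols for phospholipases, other prostanoid enzymes, receptors, transport and breakdown. Of these, 58 had a single-symbol probe set and 31 were measured by their brightest one. Of these 31, 1 was higher and 1 lower by 2-fold or more, beside 0.767% and 0.611% of all 8346 measured genes. Both were secreted phospholipases. The median log2 ratio of the 31 was 0.15.

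Pla2g2a, a secreted phospholipase with bactericidal activity, had 1087 in the transgenic pool and 83.7 in the wild-type pool, 13.0-fold higher. Pla2g1b, the phospholipase of pancreatic juice, had 0.572 in the transgenic pool and 210 in the wild-type pool, at least 10.6-fold lower by its brightest probe set. Of its 4 probe sets, another had 2.14 in the transgenic pool and 183 in the wild-type pool, and 2 were under the floor in both pools. Beside it, 9 of 9 measured pancreatic acinar markers were lower by 2-fold or more, and they summed to 1582 in the transgenic pool and 25953 in the wild-type pool. They were Cela3b, Cela2a, Ctrb1, Prss2, Cpb1, Cpa1, Rnase1, Clps and Cela1, with Cela3b lower by the most (at least 178-fold) and Cela1 by the least (2.85-fold). The part of pancreatic tissue in the Pla2g1b value was not tested.

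The other phospholipases differed less. Pla2g2f had a log2 ratio of 0.73, and of 0.84 by its second probe set, Pla2g12b had 0.55 and Pla2g6 0.23. Pla2g4f, at the floor in wild type, was at least 1.35-fold higher. Pla2g4a, the cytosolic enzyme that releases arachidonic acid for both branches, had 224 in the transgenic pool and 227 in the wild-type pool; it was named after its value was seen.

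**Figure D3:**
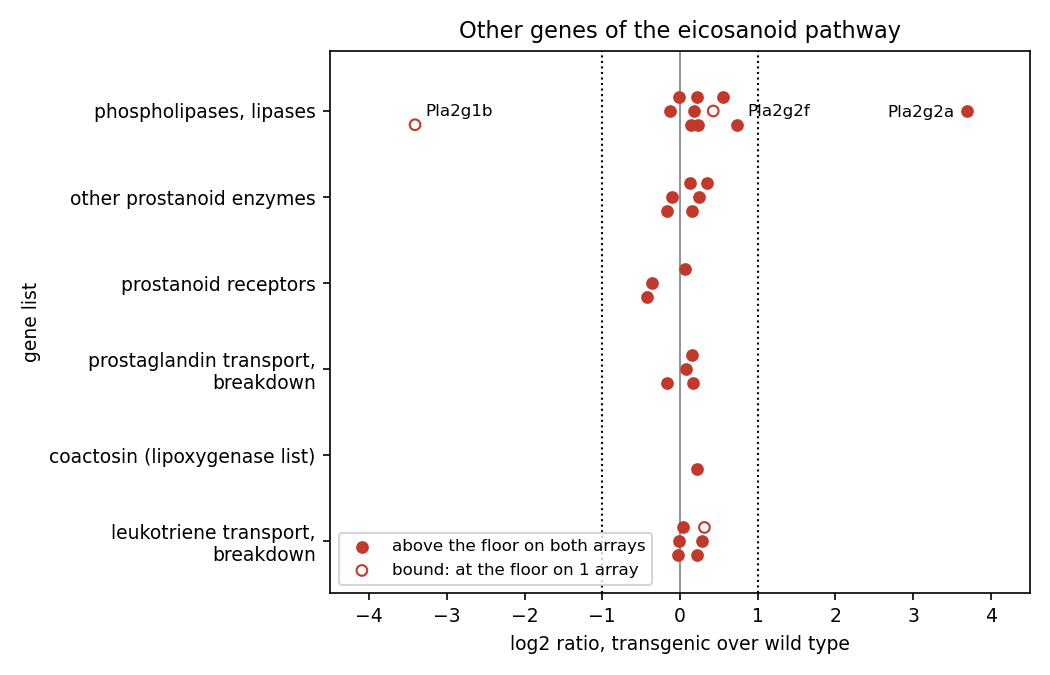
Log2 ratios of transgenic over wild type for the measured genes of the wider pathway, 1 point per gene and 1 row per list, with open circles for genes at the floor on 1 array, whose ratio is a bound. Dotted lines mark 2-fold, and Pla2g2a (3.70) and Pla2g1b (-3.41) are the 2 points outside them.

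None of the 6 other prostanoid enzymes measured reached 2-fold. The carbonyl reductase genes Cbr3 and Cbr2 had log2 ratios of 0.34 and 0.15, Prxl2b, a prostamide and prostaglandin F synthase, had 0.25 and the aldose reductase-like Akr1b8 -0.16. Ptgds, the lipocalin-type prostaglandin D synthase, and Tbxas1, the thromboxane synthase, were below the floor on both arrays.

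Of 10 prostanoid receptor genes and relatives, 3 were measured, all receptors of prostaglandin E2. Ptger3 had 45.3 in the transgenic pool and 60.8 in the wild-type pool, a log2 ratio of -0.43. Ptger2 had 22.7 in the transgenic pool and 29.2 in the wild-type pool, a ratio of -0.36, and Ptger4 had 152 in the transgenic pool and 146 in the wild-type pool, a ratio of 0.07. The prostaglandin D2 receptor genes Ptgdr and Ptgdr2, and also Ptger1, Ptgfr, Ptgir, Tbxa2r and Ptgfrn, were below the floor on both arrays.

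Of the transport and breakdown genes measured, 4 for prostaglandins and 6 for leukotrienes, 0 reached 2-fold. The prostaglandin transporter gene Slco2a1 had a log2 ratio of 0.08, and the prostaglandin reductase genes Ptgr1 and Ptgr2 had 0.15 and -0.17, with the other measured probe sets of Ptgr2 at -0.36 and -0.06. Cbr4, a further carbonyl reductase, had 0.17. For leukotrienes, the exporter gene Abcc1 had 0.04, Mgst2, a microsomal transferase able to make leukotriene C4, had 0.22, and Dpep1, a dipeptidase that trims leukotriene D4, had 0.28 with its other probe set at -0.02. Cyp4f18, which oxidises leukotriene B4, had 24.6 in the transgenic pool and 0.805 in the wild-type pool, at least 1.24-fold higher. That bound depends on the floor, since the log2 ratio became 2.14 under a 20th-percentile floor and 1.27 under a pseudocount alone, both past 2-fold.

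The leukotriene receptor genes Ltb4r1, Cysltr1 and Cysltr2 were below the floor on both arrays. So were the 6 other lipoxygenase genes on the array, namely Alox12, Alox15, Alox12b, Alox12e, Alox8 and Aloxe3. Cotl1, a coactosin-like protein that binds 5-lipoxygenase, had 0.22 on the log2 scale, and its 4 remaining probe sets lay between 0.14 and 0.68.

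Markers of cells known to express Alox5ap, Hpgds or Ltc4s differed between the genotypes by different amounts. In the mast cell list 5 of 10 measured markers were at least 2-fold higher, and the 13 on the array summed to 3426 in the transgenic pool and 310 in the wild-type pool, or to 657 in the transgenic pool and 290 in the wild-type pool without Mcpt1 and Mcpt2. The chymase genes Mcpt2 (at least 74.3-fold) and Mcpt1 (at least 65.5-fold) were far higher, Fcer1a was at least 6.79-fold, Cpa3 4.95-fold and Mcpt4 at least 3.44-fold higher. Of the other measured markers, Tpsab1 and Gata2 had log2 ratios of -0.30 and -0.18, Kit 0.45 and Cma1 0.58, and Tpsb2 was at least 1.78-fold higher. By its second measured probe set, Kit had a log2 ratio of 0.70. Both arrays were below the floor for Hdc, Ms4a2 and Gata1. Of the 10 measured mast cell markers, 5 exceeded the floor on both arrays. The rest counted as measured only through the transgenic pool.

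In the B cell list 5 of 6 measured markers were at least 2-fold higher, with a sum of 1014 in the transgenic pool and 261 in the wild-type pool over 9 genes, and Ighm at 9.11-fold, Cd79a at 3.79-fold, Cd22 at 2.72-fold, Pou2af1 at 2.21-fold and Ms4a1 at 2.21-fold higher. These are values of the brightest probe set; on the log2 scale Cd22 had 0.06 by its second measured probe set, and Ighm spanned 0.23 to 4.29 over 6 more. Among macrophage and dendritic cell markers 1 of 12 measured was, Itgax (at least 2.13-fold), and the 14 on the array summed to 2253 in the transgenic pool and 1943 in the wild-type pool. Among T and NK cell markers 1 of 8 measured was, Gzmb (at least 2.79-fold). Only 1 of the 8, Thy1 with a log2 ratio of 0.05, exceeded the floor on both arrays. The rest counted as measured only through the transgenic pool. The 12 on the array summed to 261 in the transgenic pool and 127 in the wild-type pool, sums that include values under the floor.

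Of the 8 tuft cell markers on the array 3 were measured and 0 reached 2-fold, with sums of 184 in the transgenic pool and 153 in the wild-type pool, and the defining genes Dclk1, Trpm5, Pou2f3, Gfi1b and Il25 were below the floor on both arrays. All 5 eosinophil markers and 9 of 10 neutrophil markers, S100a8 and S100a9 among them, were also below it on both arrays, where sums carry no order. Of 7 platelet markers 2 were measured and 0 reached 2-fold, with sums of 161 in the transgenic pool and 196 in the wild-type pool. The part of these cell types in the values of Alox5ap, Hpgds and Ltc4s was not tested.

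**Figure D4:**
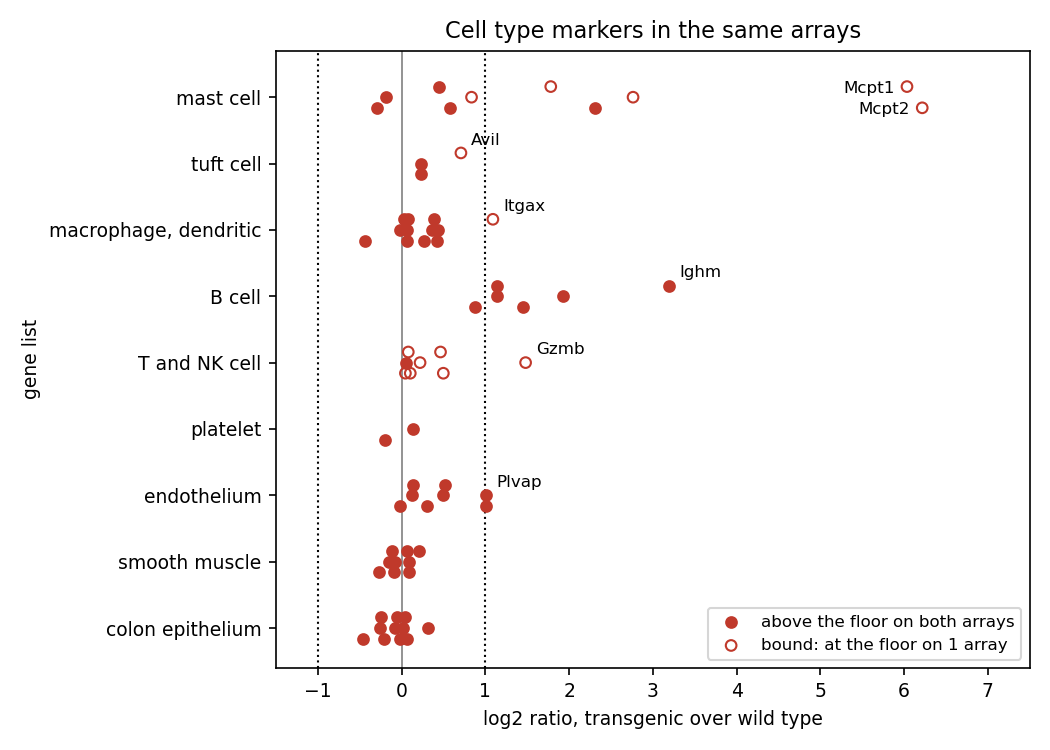
Log2 ratios of transgenic over wild type for measured cell type markers, 1 point per gene and 1 row per list, with open circles for bounds and dotted lines at 2-fold. Mast cell and B cell markers hold 5 points each beyond the upper line, while tuft cell, smooth muscle and colon epithelium markers hold 0.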

How the data were processed

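Each array was hybridised with RNA pooled from 4 mice, per the series design. The authors deposited linear intensities, 1 for each probe set of an array. The submitters' processing notes name MAS5; its version, genome build and detection calls are not given in the sources used here. The mean without the lowest and highest 2% of probe sets was 99.99 on both arrays, the pattern of global scaling, and MAS5 subtracts mismatch signal, which makes ratios of low values unstable.

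Of 22690 probe sets, 64 were controls, 20380 had 1 gene symbol in the platform annotation, 691 several and 1555 none. All single-symbol probe sets of the listed genes were used, and for other lists the probe set with the highest mean stood for its gene. Values below the floor of 19.8 were set to it, and log2 ratios were called at 2-fold. A bound is written as at least N-fold. Python 3.11.15, pandas 2.3.3 and statsmodels 0.14.6 were used, and the procedure was tested on simulated data. The simulated differences exceeded 2-fold and were placed in probe sets brighter than most of the list. That test therefore does not cover small ratios or values near the floor.

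As technical yardstick, log2 ratios of different probe sets for the same gene had a pooled SD of 0.28 over 2847 genes. The number of arrays limits the precision. Named genes were all genes of the list, in each further pathway list the genes past 2-fold and the next 4 by size, and in marker lists those past 2-fold and defining markers below the floor. Car1, Slc26a3, Cdx2, Tpsab1, Gata2, Kit, Cma1, Tpsb2 and Pla2g4a fall outside this rule and were named after their values were seen. So do Ptgds, Tbxas1 and the receptor and lipoxygenase genes below the floor on both arrays. Lists for fibroblasts and mesothelium were also read, with 0 of 8 and 0 of 1 measured markers at 2-fold. No ranking of genes by a like pattern was made, since 2 arrays give a gene a single ratio. The genes and lists were chosen with earlier results of these data known. Promoter sequences are RefSeq's, on GRCm38.p6. Alternatives were 3 other scalings, 2 other floors, no floor with a pseudocount of 16, fewer probe sets and gene means.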

Additional observations from a re-analysis of the deposited data

How the results depend on the processing

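No paired analysis was possible because each genotype has 1 array. No measured gene of the list was called at 2-fold under median scaling, quantile normalization or loess. None was with floors at the 20th and 60th percentiles or with no floor and a pseudocount. The same held without probe sets ending in _s_at, _x_at or _a_at. The floor at the 60th percentile leaves no value for Ptgs2, Ptges, Hpgds and Ltc4s. The setting without suffixed probe sets leaves none for Lta4h and Ltc4s. Of 62 alternative log2 ratios of single probe sets of the list, 0 changed sign and 2 moved by more than 0.28. Both were of Hpgds, which had 0.87 under the 20th-percentile floor and 0.43 under no floor. Only the 3 other scalings could have reversed a sign. Leaving out suffixed probe sets keeps the other ratios as they were, and a lower floor keeps those already above it on both arrays. The tally is therefore no measure of robustness for these settings. Alox5ap ranged from 0.65 to 0.80 and Ptgs2 1417262_at from -0.71 to -0.49. At 1.5-fold, chosen after seeing the data, 1 probe set of the list was higher and 1 lower, and over all probe sets 512 higher and 481 lower. Over all 13070 measured probe sets, 93 were at least 2-fold higher and 97 lower. These became 323 and 477 of 17515 with the floor at the 20th percentile, and 44 and 50 of 8759 at the 60th. They were 63 and 70 of 20380 with no floor, and 62 and 52 of 8426 without the suffixed probe sets. In the wider pathway 3 of 50 measured genes were higher (Pla2g2a, Cyp4f18, Alox15) and 2 lower (Pla2g1b, Alox12) with the floor at the 20th percentile. Alox15 and Alox12 lay under the floor of 19.8 on both arrays. Without a floor 2 of 58 were higher (Pla2g2a, Cyp4f18), and at 1.5-fold 2 of 31 (Pla2g2a, Pla2g2f). Low signal limits Ptges, Hpgds and Ltc4s, which lie near or below the floor. It also limits Ptgs2, whose probe set 1417263_at lies just above the floor, and Ptger2, which does so too. Apart from Ptger2, Ptger3 and Ptger4, the prostanoid and leukotriene receptor genes with a single-symbol probe set lie below the floor. Listed receptor genes without such a probe set were not read.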
